A study of Arabidopsis thaliana with 4 samples.

Results

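The comparison described here sets erf6-1 plants against wild-type plants after high light, 1 array a side. Both groups were Arabidopsis thaliana seedlings of the Col-0 background, 3 weeks old: high-light erf6-1 and high-light wild type had been kept for 2 h at 2000 µmol m-2 s-1, and 1 untreated array of each genotype completes the series of 4. The erf6-1 line is a mutant of ERF6, whose transcript was not analysed here, so the genotype labels were not checked against the mutated gene. Affymetrix arrays measure transcripts as hybridisation signals of probe sets, groups of short oligonucleotides designed to a transcript. Of 22746 probe sets, the 5853 with a signal of 588 or more on at least 1 of the 2 high-light arrays were kept, 588 being the 75th percentile of all signals pooled. A single named gene was available for 2847 of them. Values given per array are such signals, in arbitrary linear units. A difference is the log2 signal of high-light erf6-1 minus that of high-light wild type, after signals under 100 had been raised to 100. With 1 array a group there is no replicate check, no p-value and no standard error, and the spread between plants cannot be told apart from the genotype.

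ERF6 belongs to the ethylene response factors, transcription factors named for the plant hormone ethylene. Members of this family bind the GCC box found in promoters of pathogenesis-related genes and defensins, and several of them act where ethylene, jasmonate and oxidative stress signals meet. Strong light drives the photosynthetic electron transport chain beyond what carbon fixation can use. Reactive oxygen species are then formed in chloroplasts, and stress and protein folding genes of the nucleus are switched on.

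The labelled tissue was checked against defining transcripts. Of 12 leaf markers listed, only RCA, the activase of RuBisCO, had a named probe set, and its signal was 32887 in high-light erf6-1 and 37117 in high-light wild type. PYK10, a beta-glucosidase abundant in roots, read 18297 in high-light erf6-1 and 15881 in high-light wild type. Of 10 root markers listed 3 had a named probe set, and the other 2, EXPA7 and EXPA18, were under the brightness limit. Root tissue in the samples thus rests on PYK10 alone and was not tested. No named probe set was found for the pollen, flower, seed, embryo and vasculature markers.

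Most transcripts differed little between both arrays. Among the kept probe sets, 327 (5.59%) were apart by 2-fold or more, 160 of them higher in erf6-1 (2.73%) and 167 lower (2.85%), and 71.7% lay within 0.5 of 0 on the log2 scale. The median difference was 0.02. Among kept probe sets with 1 named gene the share 2-fold apart was 6.39%, and among the nuclear ones of these 5.83%, with a median of 0.04. Differences of 4-fold or more were fewer on the higher side, with 7 probe sets higher and 18 lower. The share of 2-fold differences was 8.41% for probe sets whose brighter array lay between 588 and 1000, 4.61% between 1000 and 2000, 2.77% between 2000 and 5000 and 3.26% above that. Differences of 2-fold were most frequent just past the brightness limit. At that limit AT3G11210 was kept with 584 in erf6-1 and 588 in wild type, whereas CuAO1, a copper amine oxidase, was left out with 587 in erf6-1 and 545 in wild type. AT1G05790 was left out too, with 586 in erf6-1 against 94.9 in wild type. Only 4 genes had several kept probe sets, and for AT3G48570 these disagreed, with differences of -1.37 and 0.04.

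**Figure D1:**
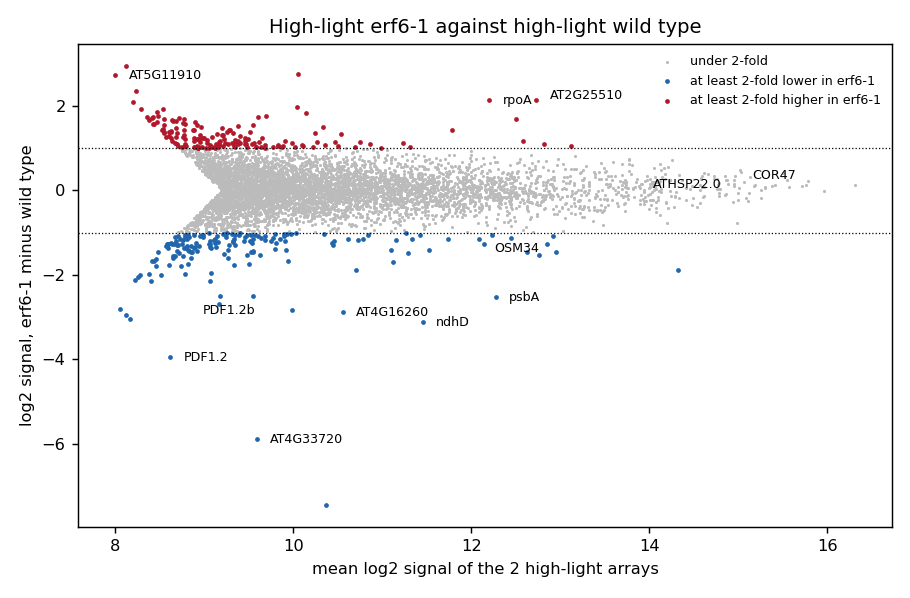
Difference in log2 signal (high-light erf6-1 minus high-light wild type, vertical axis) against the mean log2 signal of the 2 arrays (horizontal axis) for 5853 kept probe sets. Coloured points are at least 2-fold apart (160 higher in red, 167 lower in blue), the lowest point, at -7.44, has no single named gene, and the lowest named gene is AT4G33720 at -5.89.

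Genes of the pathogenesis-related proteins stood at the lower end. These are secreted proteins that accumulate in infected or ethylene-treated tissue. Of 11 probe sets named in this list 6 were kept, of which 3 were at least 2-fold lower in erf6-1 and 1 was at least 2-fold higher; among all kept nuclear genes, 2.64% were 2-fold lower and 3.18% higher. AT4G33720 codes for a secreted protein of the PR-1 type. It gave 80.3 in high-light erf6-1, against 5924 in high-light wild type, 483 in untreated erf6-1 and 397 in untreated wild type. The high-light wild type alone was high, and the difference is at least 59.2-fold, a bound because the erf6-1 signal is under the floor. AT4G16260, a beta-glucanase that attacks fungal walls, read 553 in high-light erf6-1 and 4100 in high-light wild type, with 493 and 580 in untreated erf6-1 and wild type. OSM34, an osmotin, read 2910 in high-light erf6-1 and 7040 in high-light wild type, and here both high-light arrays were above both untreated ones, at 1282 in erf6-1 and 1226 in wild type. The chitinase gene AT2G43590 was at -0.93, the chitinase gene CHI at 0.15. BGLU46, a beta-glucosidase of another enzyme family kept in the same list, was 2.97-fold higher, with 759 in erf6-1 against 255 in wild type. AT4G33720 and AT4G16260 passed the brightness limit in wild type alone, and BGLU46 in erf6-1 alone. Over all 11 named probe sets of the list 3 were 2-fold lower, 2 were 2-fold higher and the median was -0.85. The other higher one was AT2G43620, at 1.49 and under the brightness limit.

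Defensins, small cysteine-rich antimicrobial peptides, ran the same way. All 5 kept members of 13 named were below 0, and 3 of the 5 were at least 2-fold lower in erf6-1, beside 2.64% of kept nuclear genes. These 3 passed the brightness limit in wild type alone. PDF1.2, a standard marker of joint ethylene and jasmonate signalling, read 64.5 in high-light erf6-1, 1540 in high-light wild type, 71.5 in untreated erf6-1 and 30.6 in untreated wild type. Only the high-light wild type was above the floor, and the difference is at least 15.4-fold. PDF1.2b read 379 in high-light erf6-1 and 2698 in high-light wild type, with 571 and 169 in untreated erf6-1 and wild type; its probe set carries the suffix of designs that can bind related sequences, and signal from PDF1.2 cannot be separated from it. PDF2.5 had 292 in high-light erf6-1 and 731 in high-light wild type. The other kept members, LCR69 and LCR68, were bright on both arrays and at -0.47 and -0.28. Over all 13 named defensin probe sets 4 were 2-fold lower, none was 2-fold higher, 3 were under the floor on both arrays, and the median was 0.00.

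Class III peroxidases, secreted haem enzymes that make and use hydrogen peroxide in the cell wall, held several 2-fold lower genes. This list of the 73 loci of the family was set up after single members had been seen. Of 55 named probe sets 17 were kept, 16 of the 17 were below 0, and 7 were at least 2-fold lower in erf6-1 while none was 2-fold higher, beside 2.64% lower among kept nuclear genes. The median of all kept nuclear genes was 0.04. Only 7 of the 17 were above the brightness limit on both arrays. Of the 2-fold lower genes, AT5G19890, AT1G49570 and AT4G26010 passed this limit in wild type alone. AT5G19890 read 242 in high-light erf6-1 and 1377 in high-light wild type, with 664 in untreated erf6-1 and 424 in untreated wild type. High-light erf6-1 was thus the lowest of the 4 arrays and high-light wild type the highest. AT1G49570 had 377 in high-light erf6-1 and 1005 in high-light wild type, and AT4G26010 had 547 and 1228 in the same order. AT2G37130 was the brightest of the 7, with 908 in erf6-1 and 1861 in wild type, 2.05-fold lower. The remaining members past 2-fold were AT3G21770 at -1.24, AT3G49960 at -1.07 and AT4G36430 at -1.05. The only kept member above 0 was AT2G22420, at 0.14.

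The peroxidase differences were smaller once dim probe sets were counted. The median was -0.75 over the 17 kept and -0.16 over all 55 named, of which 11 were 2-fold lower, 2 were 2-fold higher and 11 were under the floor on both arrays. In the untreated arrays the 17 kept probe sets had a median of 0.34, 2 of them 2-fold higher and 4 of them 2-fold lower in erf6-1. Many class III peroxidases are expressed in roots. The root hair expansins EXPA7 and EXPA18, under the brightness limit, read 160 and 102 in high-light erf6-1 against 331 and 403.5 in high-light wild type, whereas PYK10 was at 0.20. The part of root tissue in the peroxidase differences was not tested.

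**Figure D2:**
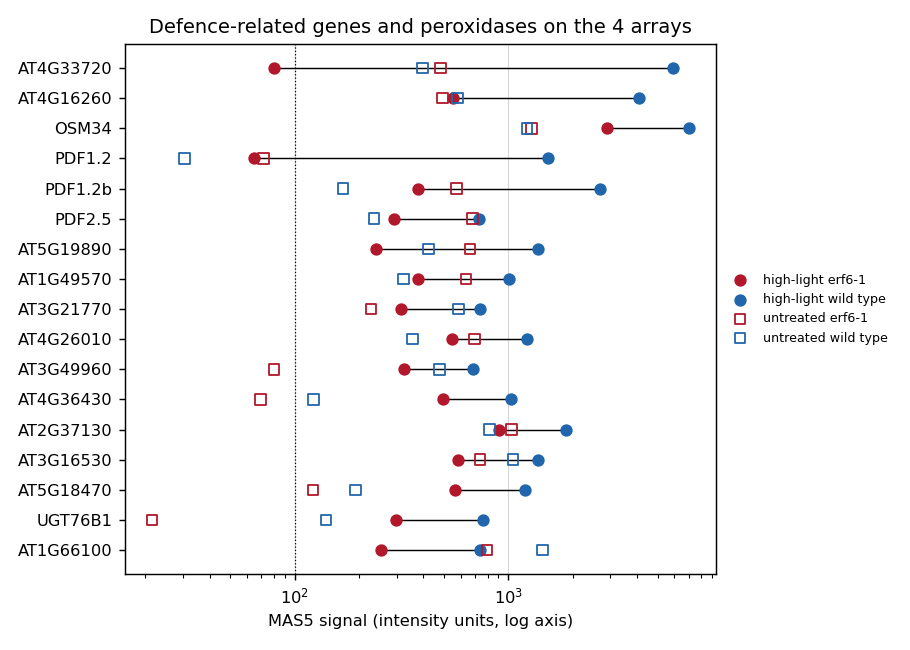
MAS5 signal (horizontal log axis) on the 4 arrays for 17 named genes, with filled circles for the high-light arrays, open squares for the untreated arrays, red for erf6-1 and blue for wild type; the dotted line is the floor of 100. All 17 shown are genes at least 2-fold lower in erf6-1 after high light, so the high-light erf6-1 circle lies left by selection. The pairs run from 80.3 against 5924 for AT4G33720 to 908 against 1861 for AT2G37130. Kept members of the same lists that were not 2-fold lower, such as BGLU46, CHI, AT2G22420 and LCR68, are not shown.

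Lectins and acid phosphatases, put together after values had been seen, held 2 genes each that were 2-fold lower in erf6-1, where 2.64% of kept nuclear genes were. The lectin genes AT3G16530, of the legume type, and AT5G18470, of the curculin type, were 2.36-fold and 2.11-fold lower in erf6-1, the only kept members of 3 named. Both passed the brightness limit in wild type alone. Acid phosphatases related to the vegetative storage proteins had 3 kept probe sets of 8 named, and a median of -0.07 over all 8. Among them AT5G44020 read 423 in high-light erf6-1 and 1216 in high-light wild type. AT1G04040 had 655 in high-light erf6-1 and 1385 in high-light wild type, but 1320 in untreated erf6-1 and 536 in untreated wild type, so its order was the opposite without treatment. UGT76B1, a glycosyltransferase that conjugates isoleucic acid and salicylic acid, was the only kept gene of the salicylic acid list, with 298 in erf6-1 and 759 in wild type. The other named members of that list, all under the brightness limit, lay above 0: SAG101 at 0.83, WRKY53 at 1.55 and GRX480 at 0.75. The thionin gene AT1G66100, chosen after its values had been seen, had 253 in erf6-1 and 740 in wild type.

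Most named regulators of these defence pathways were under the brightness limit. Of the ethylene synthesis and signalling list only EIN3, the transcription factor at the end of the ethylene pathway, was kept, with a difference of 0.29. The list of ethylene response factors and DREB proteins had 3 named probe sets, and the WRKY factors 6, none of them kept. Among these dim probe sets ORA47 was at -1.39, WRKY22 at -1.25 and WRKY53 at 1.55. The zinc finger repressor STZ, induced by oxidative stress, read 1589 in high-light erf6-1 and 2056 in high-light wild type. BIK1, a receptor-associated immune kinase, was at -0.05. For the jasmonate list PDF1.2 was the only kept gene of 5 named.

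Genes encoded in the plastid genome gave differences of both signs. They code for core subunits of the photosynthetic complexes, for parts of the plastid ribosome and for a plastid RNA polymerase. Of 69 named probe sets 49 were kept, 14 of them at least 2-fold lower in erf6-1 and 5 higher by that much, against 3.09% lower and 3.3% higher over all kept named genes. The median was -0.32 both over the 49 kept and over all 69 named. Photosystem I and the NDH complex, which feeds electrons back into the chain, held 7 of the 14 lower genes: 3 of 4 kept photosystem I genes and 4 of 7 kept NDH genes. In photosystem II, 2 of 12 were 2-fold lower and 2 were 2-fold higher, with a median of 0.19. No gene of the cytochrome b6f complex was 2-fold apart among 3 kept.

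The lower genes lay next to each other in part. Along the plastid chromosome the genes ccsA, ndhD, psaC, ndhE and ndhG follow each other in this order, and all were at least 2-fold lower in erf6-1, at -1.27, -3.12, -1.96, -1.59 and -1.31. The next genes, ndhI and ndhA, were at 0.21 each. ndhD, a membrane subunit of the NDH complex, read 954 in high-light erf6-1 and 8281 in high-light wild type, with 3230 in untreated erf6-1 and 34746 in untreated wild type. psaC, the iron-sulphur subunit that hands electrons from photosystem I to ferredoxin, had 273 in high-light erf6-1 and 1064 in high-light wild type. In contrast ndhI had 20573 in high-light erf6-1 and 17740 in high-light wild type. The ATP synthase genes atpA and atpF are also neighbours and were at -1.47 and -2.13, while atpH beside them was at 0.11. psbA, which codes for a reaction centre protein of photosystem II, and its neighbour matK were at -2.53 and -1.54. Among kept probe sets with 1 named gene, nuclear ones included, no other directly adjacent protein-coding genes were both 2-fold apart in the same direction. Nuclear pairs could seldom be seen, since of 13286 genes named in all only 2794 nuclear ones were kept. The TRAF-like genes AT5G26260 and AT5G26280 of chromosome 5, listed after values had been seen, were not directly adjacent and were at -1.03 and -1.11. Where 1 member was under the brightness limit there were further plastid pairs, such as petG at -1.92 beside psaJ at -1.88 and ndhK at -1.77 beside ndhJ at -1.29.

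Genes of the plastid ribosome and RNA polymerase were split as well. rpoA, the alpha subunit of the plastid-encoded RNA polymerase, read 9873 in high-light erf6-1 and 2255 in high-light wild type, with 37815 and 10449 in untreated erf6-1 and wild type, so both erf6-1 arrays exceeded their wild-type counterparts. In the same stretch of the chromosome rpl36 was 2.31-fold higher and rps19 2.69-fold higher, whereas rpl14 between them was at least 8.21-fold lower, with 66.9 in erf6-1 against 821 in wild type. rps3 and rpl16 were at 0.58 and 0.29. psbK and psbJ, small photosystem II subunits, were 2.24-fold and 2.12-fold higher in erf6-1. psaJ read 10736 in high-light erf6-1 and 39409 in high-light wild type, with 38776 and 266189 in untreated erf6-1 and wild type.

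Plastid genes were compared in the untreated arrays too. Of the 14 genes 2-fold lower after high light, 12 were also 2-fold lower in untreated erf6-1, where 23 of all 49 were so. Those 12 are thus part of 23, and of the 5 genes higher after high light, rpoA was the only one 2-fold higher in both pairs of arrays. The untreated median over the 49 was -0.92. psbK changed sign, at 1.16 after high light and -1.15 without treatment.

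**Figure D3:**
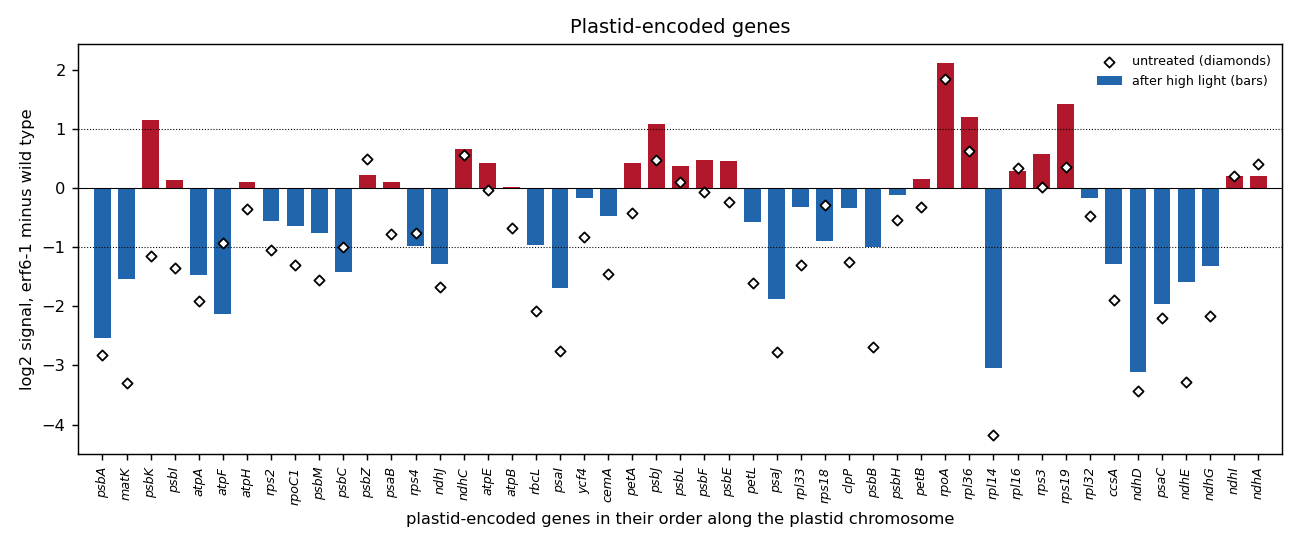
Difference in log2 signal (erf6-1 minus wild type, vertical axis) for 49 plastid-encoded genes in chromosome order, as bars after high light and as diamonds in the untreated arrays. The run from ccsA to ndhG is below -1 in both pairs of arrays, ndhI and ndhA lie just above 0, and rpoA is the highest bar at 2.13.

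Proteins of the thylakoid lumen, a list of 47 set up after values had been seen, act in the folding and upkeep of the photosystems. They had 13 kept probe sets of 21 named, 4 of them at least 2-fold higher in erf6-1 and none 2-fold lower, beside 3.18% higher among kept nuclear genes. With a pseudocount of 100 in place of the floor all 4 were just under 2-fold, AT3G60370 at 0.997, AT1G12250 at 0.95, AT5G13410 at 0.93 and AT3G10060 at 0.88. AT3G60370, AT3G10060 and AT5G13410, immunophilins of the lumen, were 2.31-fold, 2.15-fold and 2.03-fold higher. AT3G60370 had 741 in high-light erf6-1 and 321 in high-light wild type, and 1307 in untreated erf6-1 and 1203 in untreated wild type. High-light wild type was thus the lowest of the 4 arrays. AT3G60370 passed the brightness limit in erf6-1 alone, and 9 of the 13 kept probe sets were bright on both arrays. AT1G12250, a pentapeptide repeat protein, had 1700 in high-light erf6-1 and 834 in high-light wild type. AT3G15520, a cyclophilin, was the lowest kept member at -0.58. Among the members under the brightness limit, AT1G74070 was past 2-fold on the lower side, at -1.28. The absence of lower calls thus holds for the kept members only. The median over all 21 named was 0.26.

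All 7 named photosystem and antenna genes were kept. LHCB4.3, an isoform of a minor antenna protein of photosystem II, read 1139 in high-light erf6-1 and 558 in high-light wild type, 2.04-fold higher, while its paralogues LHCB4.1 and LHCB4.2 were at -0.04 and 0.11. PSBW was at 0.73, with 17964 in erf6-1 and 10835 in wild type, and PSBY at -0.50. The 4 Calvin cycle and photorespiration genes lay between -0.17 for RCA and 0.38 for SBPASE. LYC, the lycopene cyclase that opens the branch to beta-carotene, had 1298 in erf6-1 and 633 in wild type, 2.05-fold higher, whereas PORB, a protochlorophyllide reductase, was at -0.43. PIFI, which takes part in electron flow through the NDH complex, and LrgB, a glycolate and glycerate carrier of the chloroplast envelope, were chosen after their values had been seen, and were 2.18-fold and 2.04-fold higher.

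Autophagy delivers damaged cell parts, chloroplast pieces included, to the vacuole. Of 21 named probe sets in a list set up after values had been seen, 12 were kept and 11 of the 12 were above 0. Their median was 0.48, beside 0.04 over all kept nuclear genes. Where 3.18% of kept nuclear genes were at least 2-fold higher in erf6-1, 2 of the 12 were. These were AT5G50230, the ATG16 homologue that helps to attach ATG8 to lipid, with 910 in high-light erf6-1 and 392 in high-light wild type, and AT3G61960, a kinase of the ATG1 type, with 795 in erf6-1 and 393 in wild type. Both passed the brightness limit in erf6-1 alone, and after quantile normalisation both were under 2-fold, at 0.99 and 0.83. All 8 kept genes of the ubiquitin-like ATG8 family were above 0, none of them 2-fold apart. Among them ATG8E was at 0.83 and APG8A at 0.74, ATG8D at 0.04. The protease AT3G59950, of the ATG4 type, was at -0.35. Over all 21 named probe sets the median was 0.43, with 3 at least 2-fold higher and none 2-fold lower.

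Among conjugating enzymes of detoxification, the glutathione transferases held no 2-fold difference and the UDP-glycosyltransferases held some. Of 8 kept glutathione transferases of 13 named, 7 were above 0, none was 2-fold apart, and GSTU26 was highest at 0.73. UDP-glycosyltransferases transfer sugars to hormones, flavonoids and foreign compounds. Of 12 kept, 2 were at least 2-fold higher in erf6-1 and 1 was 2-fold lower, beside 3.18% and 2.64% of kept nuclear genes. UGT76E11 read 2108 in high-light erf6-1 and 957 in high-light wild type, a difference of 1.14. UGT73C1 was 2.01-fold higher, while UGT76B1 was 2-fold lower as given above. Of the 35 glycosyltransferase probe sets that were not kept, 6 were 2-fold lower and none 2-fold higher. Over all 47 named, 7 were 2-fold lower, 2 were 2-fold higher and 9 were under the floor on both arrays. With no brightness limit, 1379 of all 22746 probe sets were 2-fold lower and 1292 were 2-fold higher. The 5 antioxidant enzymes, among them the thylakoid ascorbate peroxidase TAPX at 0.29 and glutathione reductase GR at 0.11, were all kept and none was 2-fold apart.

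Among the heat shock, cold and stress marker lists, only the heat shock list held a 2-fold difference. This list of heat shock proteins and chaperones was set up after values had been seen. Of its 14 kept probe sets 1 was at least 2-fold higher in erf6-1, beside 3.18% of kept nuclear genes, and none was 2-fold lower. The small heat shock protein gene AT4G21870 was 2.03-fold higher, with 931 in erf6-1 against 458 in wild type. It passed the brightness limit in erf6-1 alone. AT1G53540 and AT2G29500, small heat shock proteins of the cytosol, were the brightest named nuclear genes, with 55782 and 45512 in high-light erf6-1 against 52220 and 41776 in high-light wild type. The cold and dehydration genes ranged from -0.41 for LEA4-5 to 0.21 for LTI30. AT3G02480, a small LEA-type protein among the 10 brightest, had 29064 in high-light erf6-1 and 21724 in high-light wild type. The 6 kept oxidative stress markers ranged from -0.69 for AT1G19020 to 0.56 for AT1G05340. The 4 genes of the unfolded protein response lay between -0.33 for the calreticulin CRT1b and 0.29 for BZIP28. In flavonoid synthesis DFR was at -0.18 and UGT78D1 at 0.57, and in glucosinolate synthesis BCAT4 was at -0.23.

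Some housekeeping groups had medians away from 0. The list of the cytosolic chaperonin, a ring that folds tubulin and actin, was set up after values had been seen. All 8 named subunit genes were kept, 6 of them below 0, with a median of -0.46 beside 0.04 over all kept nuclear genes. Of the 8, 1 was at least 2-fold lower in erf6-1, where 2.64% of kept nuclear genes were. This was AT3G18190, with 894 in erf6-1 and 2137 in wild type, 2.39-fold lower. Tubulins ranged from -0.79 for TUA6 to 0.18 for TUB6. Histone genes had a median of 0.50 over 5 kept, of which only 1 was bright on both arrays. The highest was the stress-inducible linker histone HIS1-3, with 1092 in high-light erf6-1 and 474 in high-light wild type. It passed the brightness limit in erf6-1 alone. HTB2 was at 0.80, HTB1 at 0.50, HTB4 at 0.03 and HTB11 at -0.46. The 3 kept reference genes were at -0.23 for GAPC2, -0.02 for AT4G26410 and 0.14 for AT2G32170.

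**Figure D4:**
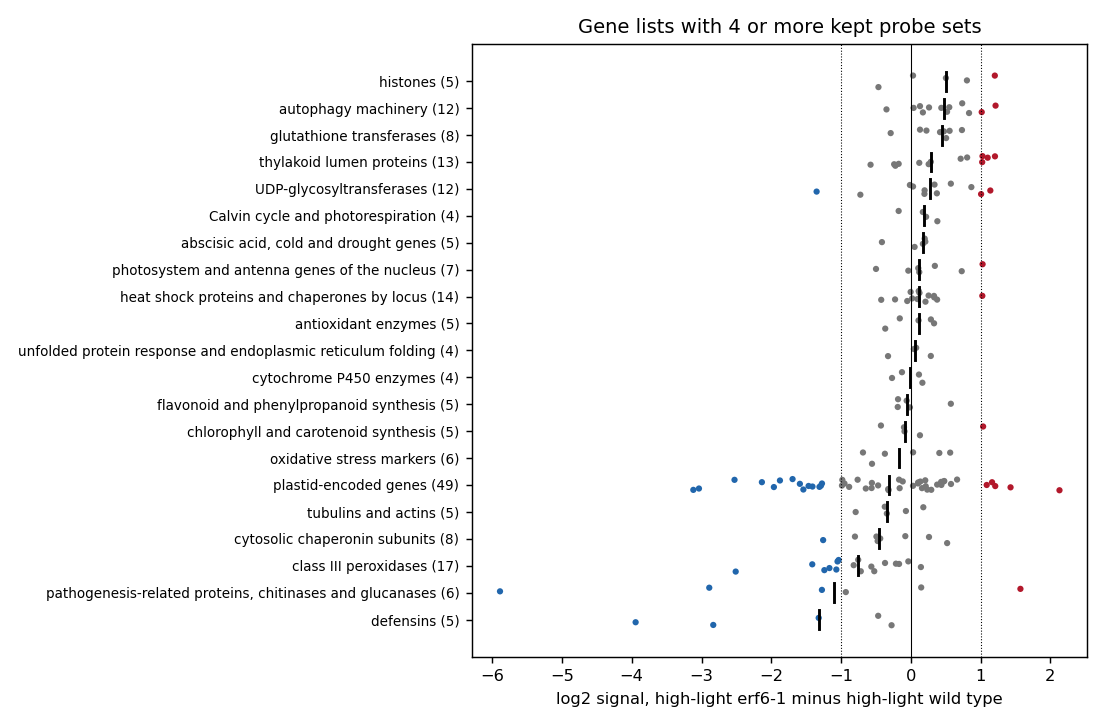
Difference in log2 signal (high-light erf6-1 minus high-light wild type, horizontal axis) of the kept probe sets in each list with 4 or more of them; points are probe sets, red and blue when at least 2-fold apart, vertical bars are medians, and the number kept is in brackets. Defensins, pathogenesis-related proteins and class III peroxidases have the lowest medians, at -1.32, -1.10 and -0.75, and histones the highest at 0.50. Only 1 of the 5 histone probe sets was bright on both arrays.

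Single genes completed the higher side. AT2G25510, a short protein of unknown role, read 14238 in high-light erf6-1 and 3241 in high-light wild type, with 12298 in untreated erf6-1 and 7927 in untreated wild type. It was the brightest nuclear gene on that side. AT5G11910, a hydrolase, was at least 6.57-fold higher, with 657 in high-light erf6-1 and 53.2 in high-light wild type. The sugar transporter gene AT3G05400 had 606 in high-light erf6-1 and 142 in high-light wild type, and 532 and 44.2 in untreated erf6-1 and wild type, higher in erf6-1 each time. The F-box gene AT1G14330 was 3.95-fold higher and the cell cycle ubiquitin-conjugating enzyme UBC20 3.33-fold higher. AT2G37470, a histone H2B gene, was 3.35-fold higher, and the calcium-binding protein gene AT1G21550, under the floor in both untreated arrays, had 1279 in high-light erf6-1 and 440 in high-light wild type.

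On the lower side, FATB, the thioesterase that releases saturated fatty acids in plastids, had 350 in high-light erf6-1 and 1188 in high-light wild type, 3.40-fold lower. SUFE2, which activates sulphur donation for iron-sulphur clusters, had 248 in erf6-1 and 827 in wild type. AT3G09700, of the DnaJ cochaperone type, was 4.37-fold lower and the WD40 repeat gene AT3G13340 4.01-fold lower. AT4G17650 was at least 7.78-fold lower. AT3G16670 had 550 in high-light erf6-1 and 1759 in high-light wild type, against 1928 and 1798 in untreated erf6-1 and wild type, so high-light erf6-1 alone was low.

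The untreated arrays share no array with the high-light pair and give the same genotype difference a separate look. On the 5853 kept probe sets untreated erf6-1 and untreated wild type were 2-fold apart for 20.5%, with 8.17% higher and 12.3% lower. The brightness limit was set on the high-light arrays alone. This share and the 5.59% of the high-light pair are therefore not on equal terms. Of the 167 probe sets 2-fold lower after high light, 59 (35.3%) were 2-fold lower without treatment too and 12 (7.19%) were 2-fold higher. Of the 160 that were higher, 38 (23.75%) were also higher without treatment and 23 (14.4%) were lower. The shared probe sets make up 8.17% of those lower and 7.95% of those higher in the untreated pair. Without named plastid genes, 47 of 153 were lower both times and 37 of 155 higher both times. For nuclear genes with a name, 16 of 74 lower ones (21.6%) and 20 of 89 higher ones (22.5%) were shared. Over all 2798 such genes, 11.2% were 2-fold lower and 9.08% higher without treatment. Called the opposite way without treatment were 7 of the 74 and 11 of the 89. The untreated median was -0.08 for the 74, as it was for all 2798, and 0.19 for the 89. The defence genes above were mostly not among these: AT4G33720 was at 0.28 without treatment, AT4G16260 at -0.23, OSM34 at 0.06 and AT5G19890 at 0.65.

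**Figure D5:**
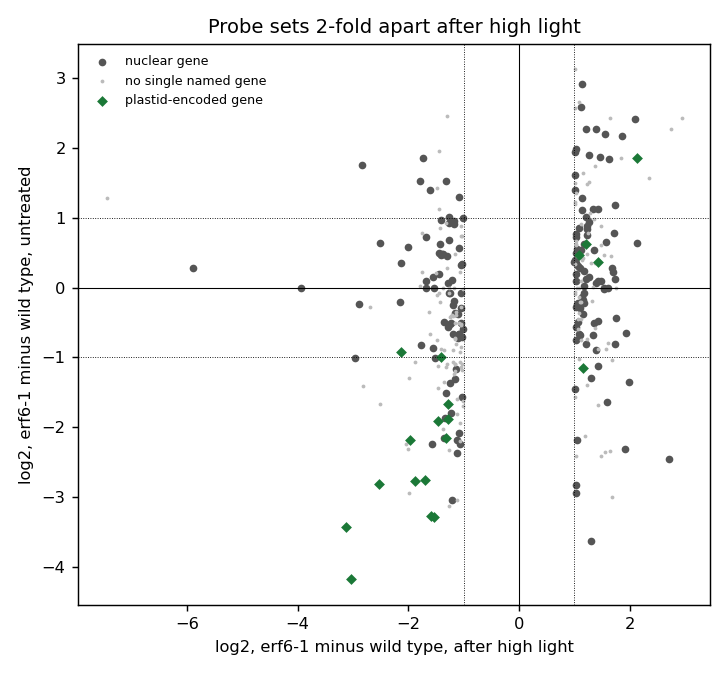
Difference in log2 signal (erf6-1 minus wild type) after high light on the horizontal axis and in the untreated arrays on the vertical axis, for the 327 probe sets at least 2-fold apart after high light. Plastid-encoded genes (green diamonds) lie mostly low in both pairs, and nuclear genes (dark circles) spread over all 4 quadrants.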

How the data were processed

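The authors deposited 1 table of linear signals in intensity units, made with MAS5 per the submitters' processing notes; its version, the scaling target and the chip annotation are not given in the sources used here. Scaling was per array: the 2% trimmed means were 493 to 495 and the medians of the high-light arrays 207 in erf6-1 and 208 in wild type. Neither scanner files nor detection calls entered the work. A description field that refers to embryos contradicts the plant labels and was ignored.

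Of 14016 probe sets in the supplied table, 13513 had 1 gene and 13436 matched the RefSeq gene table (TAIR10.1); 503 had several genes and 8730 were not listed. Values were raised to a floor of 100, put on the log2 scale and kept at 588 or more on either high-light array, with Python 3.11.15 and pandas 2.3.3. A call is 2-fold; a fold against an array under the floor is given as a bound, and none is given where both were under it. With 1 array a group no test was run, and precision is limited by the number of arrays.

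Named genes were the 20 highest and 20 lowest, up to 8 bounds each way, the 10 brightest, up to 4 members a list (all in lists of at most 8), plastid genes 2-fold apart and neighbours called alike; others, and further members of lists, are named for description. Members and all gene lists were chosen with earlier results of these data known, 49 lists first and 9 more after single values had been seen. After values had been seen, list entries that had matched an unrelated gene were removed, and 3 lists were replaced by lists by locus. Roles of genes without a symbol are background knowledge. Promoter motifs were planned and not analysed here. Alternatives for scaling, floor, filter, fold and naming were tried.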

Additional observations from a re-analysis of the deposited data

Results flagged for a closer look

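Among the 81 genes 2-fold apart that the naming rule picked, 11 are listed here: their genotype difference was 2-fold or more in opposite directions after high light and without treatment. The difference between both pairs of arrays was not tested, since each group had 1 array. On the lower side after high light were PDF1.2b at -2.83, against 1.76 without treatment, AT5G62720 at -1.79 against 1.52, SUFE2 at -1.74 against at least 1.86, AT5G57460 at -1.61 against at least 1.40, PDF2.5 at -1.32 against 1.53 and AT1G04040 at -1.08, with 1320 in untreated erf6-1 and 536 in untreated wild type. On the higher side were psbK at 1.16, against -1.15 without treatment, AT4G21140 at 1.59 against -1.64, AT1G62850 at 1.92 against a bound of -2.31, AT1G14330 at 1.98 against -1.35 and AT5G11910 at 2.72 against -2.46, both bounds. Over all kept probe sets 35 were opposite in this way.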

How the results depend on the processing

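Counts of 2-fold differences depended on the brightness limit and the scale. They were 160 higher and 167 lower as reported, 166 and 167 with equal array medians, and 87 and 126 after quantile normalisation. With a pseudocount of 100 in place of the floor they were 92 and 120. With a floor of 50 or 200 they could not change, which is no check of the counts. Every kept probe set had a high-light signal of at least 588, more than 2-fold above either floor. Where both arrays had to be bright the counts were 32 and 40. With the limit at the pooled median they were 910 and 964, and without a limit 1292 and 1379. At 3-fold they were 29 and 38, and among probe sets with 1 named gene 94 and 88. The share of higher calls ranged from 40.8% to 51.6%. The shares also called in the untreated pair ranged from 29.0% to 41.3% for lower and from 19.3% to 24.1% for higher probe sets. Of 192 named probe sets none changed sign past 2-fold, but only 81 were 2-fold apart as reported. Of those 81, 16 were under 2-fold after quantile normalisation and 14 with the pseudocount. Among these were LHCB4.3, LYC, AT5G13410, AT3G10060, AT1G12250, AT3G61960, AT4G21870, UGT73C1, AT1G04040 and AT5G18470 both times, AT3G60370 with the pseudocount, and AT5G50230, AT4G26010, UGT76E11 and HIS1-3 after quantile normalisation. Without a brightness limit the median of 5 of 21 lists moved by over 0.2. Lists with fewer than 4 kept members were taken out of this comparison after values had been seen; among them the salicylic acid list changed sign, from 1 kept gene at -1.35 to a median of 0.79 over its 4 named genes. It was also decided after seeing results that the scaling alternatives would use the probe sets kept as reported, not a set chosen anew. Leaving out a replicate was not possible, and no paired analysis was possible because each group had 1 array.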
